A study of Rattus norvegicus with 12 samples.

Results

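The 9 genes described here encode the receptors for prolactin and luteinising hormone (LH) and the first signalling proteins behind the prolactin receptor: Prlr, Lhcgr, Jak2, Stat5a, Stat5b, Cish, Socs1, Socs2 and Socs3. They were listed by their role in the pathway, with earlier results of these data known, and all 9 were measured among 14506 genes. The values come from corpora lutea (CL) of pregnant Wistar rats, with RNA of 1 animal on each of 12 Affymetrix Rat Gene 1.0 ST arrays and 3 animals per group. On day 16 of pregnancy, CL were taken after 96 h of the aromatase inhibitor anastrozole given by mouth for 4 days (AI, 1 mg/kg BW each day) together with estradiol injected under the skin (AI+E2, 10 µg of E2 per day), after AI alone, or after vehicle (VEH). The last group was taken on day 12 without treatment. The day 12 rats had received no vehicle, and no untreated rats of day 16 were used here, so day and vehicle cannot be told apart in VEH against day 12. AI and E2 were given to the whole animal, and luteal cells were not separated from vessels and other cells.

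Prolactin and its placental relatives keep the rat CL secreting progesterone through pregnancy. Their receptor has no enzyme of its own: it is bound to the kinase Jak2, which phosphorylates the transcription factors Stat5a and Stat5b, and these switch on genes that include their own inhibitors of the Cish and Socs family. LH acts through another kind of receptor, Lhcgr, which is coupled to G proteins and raises cyclic AMP in luteal cells.

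All values are RMA values on the log2 scale, in which a difference of 1 is a doubling, and each gene was read from 1 probe set. Levels of different genes were not compared beyond a rough rank of signal among all genes, since each probe set has a response of its own. The arrays were alike in signal, with medians between 6.51 and 6.56, and 12 of 12 arrays correlated best with an array of their own group. A gene is said to have risen or fallen where its adjusted p was under 0.05 (limma, adjusted by Benjamini-Hochberg across all 14506). Where a fit left out 1 array, that array was 1 of the 6 of the groups compared, unless stated otherwise. In bulk tissue, fewer cells of a type and less RNA per cell cannot be told apart.

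Among the 9 members, Prlr had the largest change in AI+E2 against AI. In AI against VEH, Prlr, Stat5a, Stat5b and Socs3 fell and Socs1 rose, so 5 of 9 members were called, where 16.9% of all genes were called (5.91% higher and 11.0% lower). Between AI+E2 and AI, Prlr and Cish rose and 0 members fell, so 2 of 9 were called, against 12.8% of all genes (8.65% higher and 4.13% lower). Between AI+E2 and VEH all 9 members were called, with 5 that rose (Prlr, Lhcgr, Jak2, Cish and Socs1) and 4 that fell (Stat5a, Stat5b, Socs2 and Socs3), against 13.0% of all genes (6.11% higher and 6.90% lower). That count was 6 to 8 when 1 array was left out and 0 with the methods' t-test, the test on 2 groups named in the study's methods, which does not share the spread between genes (Benjamini-Hochberg adjusted p from 0.0588 to 0.27). In VEH against day 12, Socs3 rose and Jak2 fell, so 2 of 9 were called, against 10.1% of all genes (6.91% higher and 3.23% lower).

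The changes were small. A fold of at least 1.5 together with a call was found for Prlr alone between AI+E2 and AI, and for Socs3 alone between AI+E2 and VEH. In the other comparisons 0 members passed both conditions, and 0 members reached a fold of 2 in any of the 4 comparisons. The members' median log2 fold change was -0.11 in AI against VEH, 0.17 in AI+E2 against AI, 0.25 in AI+E2 against VEH and -0.09 in VEH against day 12, beside medians over all genes of 0.013, -0.022, -0.006 and -0.018. The comparisons share arrays, those of AI in the first pair and those of VEH in 3 of the 4, so their results are given side by side and not set against each other. With 3 arrays against 3, an exact two-sided permutation test of a single gene cannot go below 0.1.

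**Figure D1:**
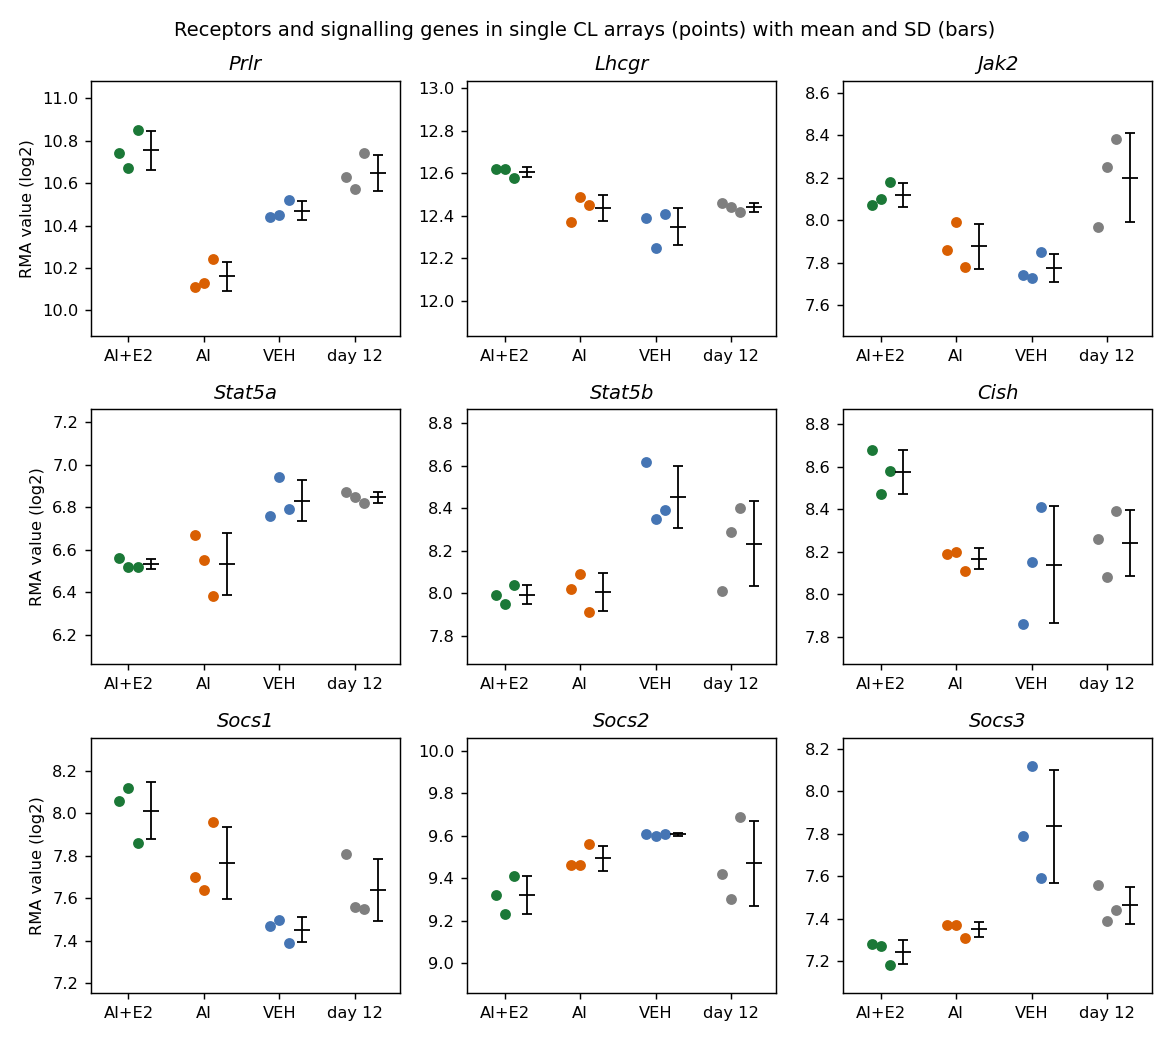
RMA values (log2, vertical axes) of the 9 genes in each of the 12 arrays (points), by group, with the group mean and SD (bars, n = 3). The 3 AI+E2 arrays of Prlr lie between 10.67 and 10.85 and its 3 AI arrays between 10.11 and 10.24, while Stat5b and Socs3 are highest in VEH; each panel has an axis of its own that does not start at 0.

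The prolactin receptor gene Prlr was lowest after AI and highest after AI+E2. Its level was 10.74, 10.67 and 10.85 in the AI+E2 arrays, 10.11, 10.13 and 10.24 in the AI arrays, 10.44, 10.45 and 10.52 in the VEH arrays and 10.63, 10.57 and 10.74 in the day 12 arrays. Every AI array lay below every array of the other groups, and every VEH array lay below every AI+E2 and every day 12 array, whereas AI+E2 and day 12 overlapped. Prlr fell in AI against VEH by 0.31 on the log2 scale (SE 0.066, 95% interval -0.45 to -0.17, 1.24-fold, limma adjusted p = 0.00357). It rose in AI+E2 against AI by 0.59 (SE 0.066, 95% interval 0.45 to 0.73, 1.51-fold, adjusted p = 1.66e-05), and this call was kept in every fit that left out 1 array, with changes between 0.55 and 0.63.

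E2 given with AI left Prlr above VEH rather than at it. Against VEH, it rose in AI+E2 by 0.28 (95% interval 0.14 to 0.42, 1.22-fold, limma adjusted p = 0.00902), but without AI+E2 replicate 3 the change was 0.24 with an adjusted p of 0.0518. In VEH against day 12 the difference was -0.18 (95% interval -0.32 to -0.04, adjusted p = 0.109), with every VEH array below every day 12 array. AI arrays averaged 0.49 below day 12 and AI+E2 arrays 0.1 above it, differences that were not tested. The rat gene gives a long and a short receptor form, and which of them the single probe set reads was not determined.

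The LH receptor gene Lhcgr, whose product receives LH at the luteal cell surface, had a range of 0.37 over the 12 arrays, beside 0.74 for Prlr. Its mean level, 12.46, was above that of 99.9% of genes, and whether changes are compressed at so high a signal was not tested. It read 12.62, 12.62 and 12.58 in the AI+E2 arrays, 12.37, 12.49 and 12.45 in the AI arrays, 12.39, 12.25 and 12.41 in the VEH arrays and 12.46, 12.44 and 12.42 in the day 12 arrays. All 3 AI+E2 arrays lay above the other 9 arrays, while AI overlapped both VEH and day 12. Lhcgr rose in AI+E2 against VEH by 0.25 (SE 0.058, 95% interval 0.13 to 0.38, 1.19-fold, limma adjusted p = 0.00816). With quantile normalization applied again, to the values of the 14506 genes tested and not to all probe sets, this change was 0.19 with an adjusted p of 0.0849.

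Against AI, the AI+E2 difference of Lhcgr was 0.17 (95% interval 0.04 to 0.29, limma adjusted p = 0.08) and did not pass the threshold. AI differed from VEH by 0.09 (95% interval -0.04 to 0.21, adjusted p = 0.363), an interval that leaves out a fall of more than 0.04 on the log2 scale. VEH differed from day 12 by -0.09 (95% interval -0.21 to 0.04, adjusted p = 0.394). Prlr fell after AI and Lhcgr did not pass the test, but the difference between the changes of these genes was not tested.

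The stretch before the Lhcgr start is shown because promoters of this gene are known to be driven by Sp1 at GC boxes. In the RefSeq promoter window of each gene (250 bases before to 50 after the start, build GRCr8), the letters GGGCGG were searched on both strands, and matches are in capitals in the 250 bases before the Lhcgr start on the plus strand, chr6:11415165-11415414.
Lhcgr: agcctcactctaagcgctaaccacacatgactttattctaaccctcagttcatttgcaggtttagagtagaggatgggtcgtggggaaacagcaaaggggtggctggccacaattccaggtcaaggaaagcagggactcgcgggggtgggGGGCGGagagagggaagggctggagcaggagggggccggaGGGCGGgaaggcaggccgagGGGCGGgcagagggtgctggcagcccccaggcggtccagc
The 3 matches begin 100, 60 and 40 bases before the start, and 33.1% of 33365 promoter windows held at least 1. Among the other members found, Stat5b and Socs1 each held 3 matches, Stat5a 2, Jak2 and Cish 1 each, and Prlr and Socs3 0. The cyclic AMP response element TGACGTCA had 0 matches in the windows of the members found, and 1.83% of all windows held it.

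Jak2, the kinase bound to the prolactin receptor and to related receptors, was lowest in VEH. Its level was 8.07, 8.10 and 8.18 in AI+E2 arrays, 7.86, 7.99 and 7.78 in AI arrays, 7.74, 7.73 and 7.85 in VEH arrays and 7.97, 8.25 and 8.38 in day 12 arrays. AI and VEH overlapped, and so did AI+E2 and day 12. Jak2 fell in VEH against day 12 by 0.43 (SE 0.09, 95% interval -0.62 to -0.24, 1.34-fold, limma adjusted p = 0.00637), which held in every fit that left out 1 array.

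After AI+E2, Jak2 rose against VEH by 0.34 (95% interval 0.15 to 0.53, 1.27-fold, limma adjusted p = 0.0194). This call was lost without VEH replicate 1 (0.32, adjusted p = 0.0672), VEH replicate 2 (0.32, adjusted p = 0.0663) or AI+E2 replicate 3 (0.31, adjusted p = 0.0804). Against AI the AI+E2 difference was 0.24 (95% interval 0.05 to 0.43, adjusted p = 0.106), with every AI+E2 array above every AI array. AI differed from VEH by 0.1 (95% interval -0.09 to 0.29, adjusted p = 0.513).

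Stat5a and Stat5b, the transcription factors that carry the prolactin signal to the nucleus, both fell after AI, and after AI+E2 both stayed at about the AI level. Stat5b was at 7.99, 7.95 and 8.04 in AI+E2 arrays, 8.02, 8.09 and 7.91 in AI arrays, 8.62, 8.35 and 8.39 in VEH arrays and 8.01, 8.29 and 8.40 in day 12 arrays. Every AI+E2 and AI array lay below every VEH array, whereas the day 12 arrays overlapped with all other groups. Stat5b fell by 0.45 in AI against VEH (SE 0.094, 95% interval -0.65 to -0.25, 1.37-fold, limma adjusted p = 0.00318) and by 0.46 in AI+E2 against VEH (95% interval -0.66 to -0.26, 1.38-fold, adjusted p = 0.00374). Both calls held in every limma fit that left out 1 array but not with the methods' t-test (adjusted p = 0.103 and 0.0884). AI+E2 differed from AI by -0.01 (95% interval -0.21 to 0.19, adjusted p = 0.965), and VEH from day 12 by 0.22 (95% interval 0.02 to 0.42, adjusted p = 0.174).

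Stat5a was at 6.56, 6.52 and 6.52 in AI+E2 arrays, 6.67, 6.55 and 6.38 in AI arrays, 6.76, 6.94 and 6.79 in VEH arrays and 6.87, 6.85 and 6.82 in day 12 arrays. The AI+E2 and AI arrays were all below the VEH and day 12 arrays, and the last 2 groups overlapped. Stat5a fell by 0.3 in AI against VEH (SE 0.072, 95% interval -0.45 to -0.14, 1.23-fold, limma adjusted p = 0.00924) and by 0.3 in AI+E2 against VEH (adjusted p = 0.0115). Without VEH replicate 2 these changes were -0.24 (adjusted p = 0.0508) and -0.25 (adjusted p = 0.0606). With the methods' t-test both calls were lost (adjusted p = 0.208 and 0.0807). The mean level of Stat5a, 6.69, was above that of 45.3% of genes. AI+E2 differed from AI by 0 (95% interval -0.16 to 0.15, adjusted p = 0.991) and VEH from day 12 by -0.01 (adjusted p = 0.927). The genes are close copies that lie next to each other on chromosome 10, on opposite strands and with 0 annotated genes between them, and whether their probe sets share probes was not tested.

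**Figure D2:**
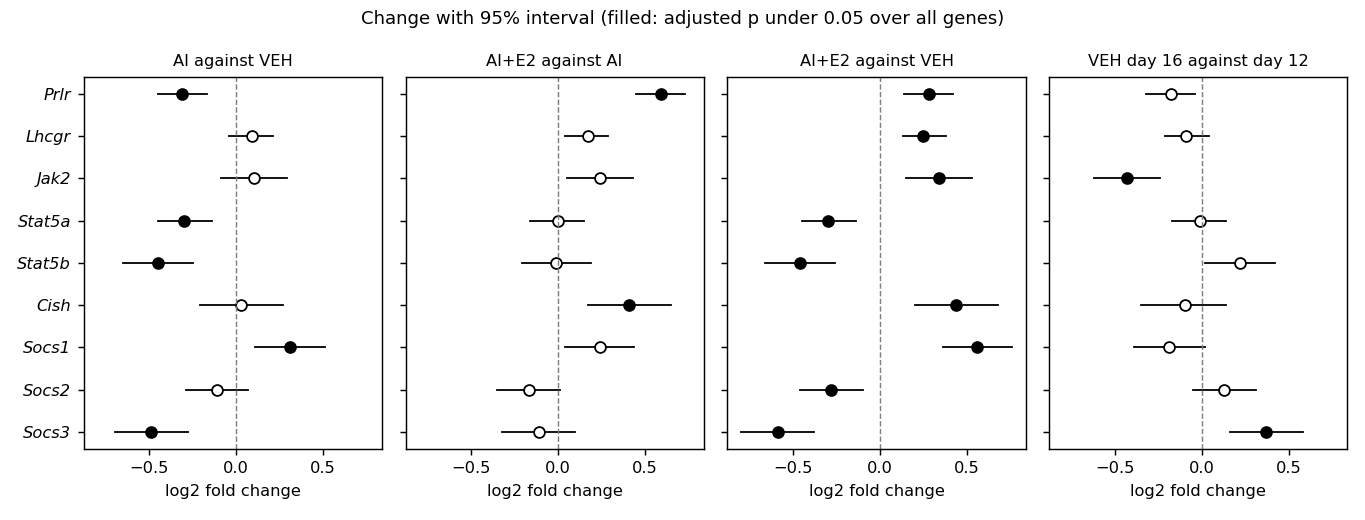
Log2 fold change (horizontal axes) of each of the 9 genes in the 4 comparisons, as the first group named minus the second, with its 95% interval from limma (lines). Filled points had an adjusted p under 0.05 over all genes: 5 in AI against VEH, 2 in AI+E2 against AI, 9 in AI+E2 against VEH and 2 in VEH against day 12.

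Cish and Socs1 are induced by cytokine signals through STAT proteins and restrain the same receptors. The stretches before their starts are shown because theirs were the windows, 2 of the 8 members found in the RefSeq promoter table, that held a match to TTCNNNGAA, the site STAT5 is known to bind. Both strands were searched, which for this palindrome gives the same matches, and they are in capitals in the 250 bases before the start, with Cish at chr8:116850719-116850968 and Socs1 at chr10:5389324-5389573, both on the plus strand of GRCr8.
Cish: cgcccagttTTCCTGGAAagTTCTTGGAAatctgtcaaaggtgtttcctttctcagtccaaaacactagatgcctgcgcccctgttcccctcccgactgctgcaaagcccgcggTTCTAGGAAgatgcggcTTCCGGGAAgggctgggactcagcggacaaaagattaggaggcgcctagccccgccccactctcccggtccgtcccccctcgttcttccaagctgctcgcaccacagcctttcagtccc
Socs1: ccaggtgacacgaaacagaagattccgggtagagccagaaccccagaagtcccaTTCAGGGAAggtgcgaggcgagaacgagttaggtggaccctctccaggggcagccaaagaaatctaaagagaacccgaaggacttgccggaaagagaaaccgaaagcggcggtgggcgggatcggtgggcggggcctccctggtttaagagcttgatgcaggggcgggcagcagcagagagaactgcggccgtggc
Cish held 4 matches, TTCCTGGAA, TTCTTGGAA, TTCTAGGAA and TTCCGGGAA, which begin 241, 230, 136 and 119 bases before the start. Socs1 held 1, TTCAGGGAA, which begins 196 bases before it, and 8.88% of all 33365 windows held at least 1. The estrogen response element GGTCANNNTGACC had 0 matches in the 8 windows, and 0.027% of all windows held it. Its shorter form GGTCA, which the whole element contains, was in the windows of Lhcgr, Stat5a, Cish and Socs3 and in 40.5% of all windows. These are matches of letters and not shown to be bound in these CL.

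Cish, an early STAT5 target that blocks STAT5 binding to the receptor, was highest after AI+E2. It read 8.68, 8.47 and 8.58 in AI+E2 arrays, 8.19, 8.20 and 8.11 in AI arrays, 7.86, 8.15 and 8.41 in VEH arrays and 8.26, 8.08 and 8.39 in day 12 arrays. Every AI+E2 array lay above the other 9 arrays, and the VEH arrays spread widest (SD 0.27). Cish rose by 0.41 in AI+E2 against AI (SE 0.11, 95% interval 0.17 to 0.65, 1.33-fold, limma adjusted p = 0.0254).

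The Cish change in AI+E2 against AI stayed between 0.36 and 0.46 when 1 array was left out, but the call was lost in 4 of the 6 fits. These were the fits without AI replicate 1 (0.42, limma adjusted p = 0.0662), AI replicate 3 (0.38, adjusted p = 0.0819), AI+E2 replicate 1 (0.36, adjusted p = 0.117) or AI+E2 replicate 3 (0.41, adjusted p = 0.0765). It was also lost with quantile normalization applied again (0.33, adjusted p = 0.0758). Against VEH, Cish rose in AI+E2 by 0.44 (95% interval 0.2 to 0.68, 1.35-fold, adjusted p = 0.0164). That call was lost without VEH replicate 1 (0.30, adjusted p = 0.0753), AI+E2 replicate 1 (0.39, adjusted p = 0.0826) or AI+E2 replicate 3 (0.44, adjusted p = 0.0508). AI differed from VEH by 0.03 (95% interval -0.21 to 0.27, adjusted p = 0.901), and VEH from day 12 by -0.1 (adjusted p = 0.632).

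Socs1, an inhibitor that binds JAK kinases directly, was highest after AI+E2 and lowest in VEH. Its level was 8.06, 8.12 and 7.86 in AI+E2 arrays, 7.70, 7.64 and 7.96 in AI arrays, 7.47, 7.50 and 7.39 in VEH arrays and 7.81, 7.56 and 7.55 in day 12 arrays. VEH lay below each of the other groups without overlap, and AI overlapped with AI+E2 and with day 12. Socs1 rose in AI+E2 against VEH by 0.56 (SE 0.094, 95% interval 0.36 to 0.76, 1.47-fold, limma adjusted p = 0.000814), which held in every fit that left out 1 array.

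Against VEH, Socs1 rose in AI by 0.31 (95% interval 0.11 to 0.51, 1.24-fold, limma adjusted p = 0.0317). The call was lost in 5 of the 6 fits that left out 1 array: without VEH replicate 1 (0.32, adjusted p = 0.069), VEH replicate 2 (0.34, adjusted p = 0.0524), VEH replicate 3 (0.28, adjusted p = 0.1), AI replicate 1 (0.35, adjusted p = 0.0506) and AI replicate 3 (0.22, adjusted p = 0.152). The difference between AI+E2 and AI was 0.24 (95% interval 0.04 to 0.44, adjusted p = 0.114), and that between VEH and day 12 was -0.19 (adjusted p = 0.262).

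Socs2, which is known above all as an inhibitor of growth hormone signalling, was at 9.32, 9.23 and 9.41 in AI+E2 arrays, 9.46, 9.46 and 9.56 in AI arrays, 9.61, 9.60 and 9.61 in VEH arrays and 9.42, 9.30 and 9.69 in day 12 arrays. The groups of day 16 did not overlap, with AI+E2 lowest, AI next and VEH highest, while day 12 overlapped with each of them. Socs2 fell in AI+E2 against VEH by 0.28 (95% interval -0.46 to -0.1, 1.22-fold, limma adjusted p = 0.0368). The call was lost in 5 of the 6 fits that left out 1 array, without VEH replicate 1, 2 or 3 or without AI+E2 replicate 1 or 2, with the smallest change, -0.24, and the highest adjusted p, 0.145, without AI+E2 replicate 2. Differences of -0.17 in AI+E2 against AI (adjusted p = 0.225), -0.11 in AI against VEH (adjusted p = 0.439) and 0.13 in VEH against day 12 (adjusted p = 0.377) did not pass.

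Socs3, an inhibitor that is induced by many cytokines and acts at gp130 receptors, was highest in VEH. It read 7.28, 7.27 and 7.18 in AI+E2 arrays, 7.37, 7.37 and 7.31 in AI arrays, 7.79, 8.12 and 7.59 in VEH arrays and 7.56, 7.39 and 7.44 in day 12 arrays. No group overlapped with another: AI+E2 was lowest, then AI, day 12 and VEH, with VEH replicate 2 the highest of all. Socs3 fell by 0.49 in AI against VEH (SE 0.098, 95% interval -0.7 to -0.28, 1.4-fold, limma adjusted p = 0.00253) and by 0.59 in AI+E2 against VEH (95% interval -0.8 to -0.38, 1.51-fold, adjusted p = 0.000744). Both calls held in every fit that left out 1 array, and without VEH replicate 2 the changes were its smallest, -0.34 and -0.45.

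The rise of Socs3 in VEH against day 12 was less firm. It was 0.37 (95% interval 0.16 to 0.58, 1.29-fold, limma adjusted p = 0.0263). Without VEH replicate 2 it was 0.23 (adjusted p = 0.09), and the call was also lost without VEH replicate 1 (0.39, adjusted p = 0.057), day 12 replicate 2 (0.33, adjusted p = 0.0755) or day 12 replicate 3 (0.36, adjusted p = 0.0642). Between AI+E2 and AI the difference was -0.11 (95% interval -0.32 to 0.1, adjusted p = 0.567).

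Counting members whose arrays did not overlap between the groups gave 6 of 9 in AI against VEH (31.4% of all genes), 6 of 9 in AI+E2 against AI (31.4%), 9 of 9 in AI+E2 against VEH (29.3%) and 5 of 9 in VEH against day 12 (24.3%). Of the 18 calls of members, 9 were kept in all 6 fits that left out 1 array of the groups compared. These were Prlr, Stat5b and Socs3 in AI against VEH, Prlr in AI+E2 against AI, Lhcgr, Stat5b, Socs1 and Socs3 in AI+E2 against VEH, and Jak2 in VEH against day 12. By the adjusted p of the methods' t-test, 17 of the 18 calls were lost, and that of Prlr in AI+E2 against AI was kept (adjusted p = 0.0275).

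Of the other JAK, STAT, SOCS, PIAS and phosphatase genes, 23 of 26 listed were measured. AI against VEH called 0 higher and 1 lower, AI+E2 against AI and VEH against day 12 each called 0, and AI+E2 against VEH called 1 higher and 2 lower, with medians between -0.03 and 0.02. The medians over all genes were 0.013 in AI against VEH, -0.022 in AI+E2 against AI, -0.006 in AI+E2 against VEH and -0.018 in VEH against day 12, for this and the lists that follow. In the same order, 5.91% of all genes were called higher and 11.0% lower, 8.65% and 4.13%, 6.11% and 6.90%, and 6.91% and 3.23%. These shares hold for the lists and cell markers that follow too. Ptpn1, a phosphatase that acts on Jak2, fell in AI against VEH by 0.51 (SE 0.06, limma adjusted p = 2.06e-05) and in AI+E2 against VEH by 0.38 (adjusted p = 0.000502). Between AI+E2 and VEH, Pias1, an inhibitor of STAT proteins, rose by 0.26 (adjusted p = 0.0298) and Sh2b3, an adaptor that restrains Jak2, fell by 0.24 (adjusted p = 0.0117). The Pias1 call was lost without AI+E2 replicate 1 or 3 or VEH replicate 2 or 3 (0.21 to 0.27), and the Sh2b3 call without AI+E2 replicate 3 or VEH replicate 1 (-0.21 in both).

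Among other receptors that signal through JAK kinases, 10 of 14 were measured, and the growth hormone receptor Ghr showed a wider range than any of the 9 members. Ghr was at 8.26, 8.16 and 8.32 in AI+E2 arrays, 6.88, 7.16 and 6.83 in AI arrays, 8.09, 8.12 and 8.04 in VEH arrays and 7.20, 7.26 and 7.51 in day 12 arrays. AI was below every array of the other groups, and every AI+E2 array was above every VEH array. Ghr fell by 1.13 in AI against VEH (SE 0.092, 2.19-fold, limma adjusted p = 4.22e-07) and rose by 1.29 in AI+E2 against AI (2.45-fold, adjusted p = 1.63e-07). It also rose by 0.77 in VEH against day 12 (adjusted p = 6.43e-05), and in AI+E2 against VEH its difference was 0.16 (adjusted p = 0.33).

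Of the same receptors, AI against VEH called 0 higher and 3 lower, AI+E2 against AI 3 higher and 0 lower, AI+E2 against VEH 1 higher and 3 lower, and VEH against day 12 3 higher and 1 lower. The shares of all genes called in either direction were 16.9%, 12.8%, 13.0% and 10.1%. The shared receptor chain of lymphocyte interleukins, Il2rg, fell in AI against VEH by 0.57 (limma adjusted p = 4.23e-06) and in AI+E2 against VEH by 0.4 (adjusted p = 0.000199). Il6st, which encodes gp130, rose by 0.33 in AI+E2 against AI (adjusted p = 0.00801) and by 0.33 in AI+E2 against VEH (adjusted p = 0.00695). Lifr, its partner in the receptor for leukemia inhibitory factor, rose by 0.29 in AI+E2 against AI (adjusted p = 0.0176), a call lost without AI replicate 1 or 3 or AI+E2 replicate 1 or 3 (0.24 to 0.28). The falls of Ifngr1, an interferon gamma receptor, in AI against VEH (-0.28, adjusted p = 0.0374) and of Csf3r, the receptor for granulocyte colony-stimulating factor, in AI+E2 against VEH (-0.28, adjusted p = 0.0463) were not firm. That of Ifngr1 was lost without AI replicate 1 or without any 1 of the VEH replicates (-0.31 to -0.21), and that of Csf3r without any 1 of the AI+E2 replicates or VEH replicate 2 or 3 (-0.30 to -0.21).

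Genes of G proteins, cyclic AMP and the switching off of receptors, downstream of the LH receptor, were measured for 29 of 31 listed. The list includes Mvk, described below, which is counted among the calls. AI against VEH called 2 higher and 6 lower, AI+E2 against AI 2 higher and 3 lower, AI+E2 against VEH 0 higher and 8 lower, and VEH against day 12 6 higher and 0 lower, with medians of -0.08, -0.03, -0.05 and 0.08. Over all genes, these comparisons called 5.91% higher and 11.0% lower, 8.65% higher and 4.13% lower, 6.11% higher and 6.90% lower, and 6.91% higher and 3.23% lower. Gna11, a G protein subunit that activates phospholipase C, was lower after AI and lower again after AI+E2, at 8.34, 8.18 and 8.22 in AI+E2 arrays, 9.03, 9.11 and 9.04 in AI arrays, 9.82, 9.70 and 9.71 in VEH arrays and 9.57, 9.79 and 9.71 in day 12 arrays. It fell by 0.68 in AI against VEH (limma adjusted p = 3.96e-06), by 0.81 in AI+E2 against AI (adjusted p = 1.05e-06) and by 1.49 in AI+E2 against VEH (2.82-fold, adjusted p = 3.39e-09).

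Its relative Gnaq fell by 0.83 in AI against VEH (limma adjusted p = 6.05e-07) and by 0.61 in AI+E2 against VEH (adjusted p = 2.4e-05). Adcy6, an adenylyl cyclase that makes cyclic AMP, was at 7.43, 7.41 and 7.30 in AI+E2 arrays, 7.48, 7.52 and 7.36 in AI arrays, 8.21, 8.31 and 8.14 in VEH arrays and 7.57, 7.46 and 7.70 in day 12 arrays, so that VEH stood above the other 3 groups. It fell by 0.77 in AI against VEH (adjusted p = 2.08e-06) and by 0.84 in AI+E2 against VEH (adjusted p = 1.56e-06), and rose by 0.64 in VEH against day 12 (adjusted p = 3.75e-05). Arrb1, an arrestin that uncouples and internalises activated receptors, had the same order of calls, with -0.43 in AI against VEH (adjusted p = 0.00105), -0.48 in AI+E2 against VEH (adjusted p = 0.000565) and 0.49 in VEH against day 12 (adjusted p = 0.000769).

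Gnai2, a G protein subunit that inhibits adenylyl cyclase, fell in AI against VEH by 0.45 (limma adjusted p = 3.6e-05) and rose in AI+E2 against AI by 0.37 (adjusted p = 0.000361). Mvk, mevalonate kinase, whose protein also binds Lhcgr mRNA in the rat ovary and speeds its loss, rose in AI against VEH by 0.28 (adjusted p = 0.00596) and fell in AI+E2 against AI by 0.57 (adjusted p = 1.66e-05). Against VEH it fell in AI+E2 by 0.29 (adjusted p = 0.00546). Pde8a, a phosphodiesterase that degrades cyclic AMP, fell in AI+E2 against AI by 0.27 (adjusted p = 0.00798).

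**Figure D3:**
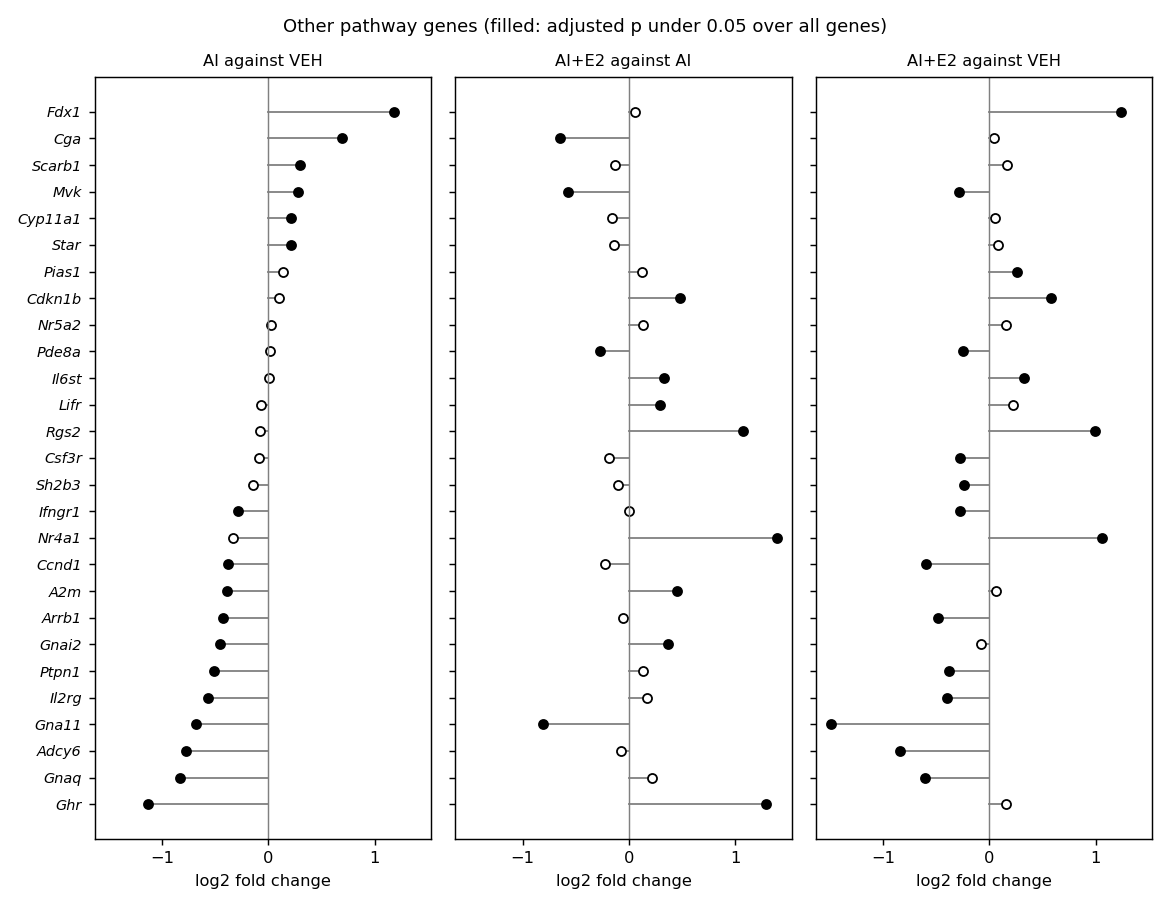
Log2 fold change (horizontal axes, first group named minus the second) of 27 other genes of the prolactin and LH pathways in 3 comparisons, ordered by AI against VEH; filled points had an adjusted p under 0.05 over all genes (limma). Ghr fell by 1.13 in AI against VEH and rose by 1.29 in AI+E2 against AI, and Gna11 was lower in both; Akr1c3 and Csn1s1, whose changes exceed the axis, are given in the text.

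Textbook prolactin responsive genes of CL and mammary gland, all 22 measured, did not move one way. The list holds genes that prolactin induces and genes that it represses. The direction of its calls and its medians therefore do not measure prolactin signalling. AI against VEH called 3 higher and 5 lower, AI+E2 against AI 5 higher and 1 lower, AI+E2 against VEH 4 higher and 1 lower, and VEH against day 12 3 higher and 2 lower, with medians of 0.03, 0.06, 0.05 and -0.05. The shares of all genes called in either direction were 16.9%, 12.8%, 13.0% and 10.1%. Csn1s1, a casein gene that prolactin induces in the mammary gland, was at 9.91, 9.81 and 10.10 in AI+E2 arrays, 5.92, 5.97 and 5.61 in AI arrays, 6.18, 6.80 and 6.92 in VEH arrays and 5.30, 5.74 and 5.47 in day 12 arrays. The AI+E2 arrays stood far above all others. It rose by 4.11 in AI+E2 against AI (SE 0.16, 17.2-fold, limma adjusted p = 6.62e-10) and by 3.31 in AI+E2 against VEH (adjusted p = 4.47e-09), and fell by 0.8 in AI against VEH (adjusted p = 0.00266). The AI and VEH levels in that fall lie near or below the array medians of 6.51 to 6.56. By the methods' t-test the fall did not pass (adjusted p = 0.191).

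Akr1c3, listed in older annotations as Akr1c18, encodes the enzyme that inactivates progesterone in the rat CL, and prolactin is known to repress it. It was at 10.70, 10.56 and 10.83 in AI+E2 arrays, 7.76, 8.10 and 8.67 in AI arrays, 6.23, 6.63 and 6.79 in VEH arrays and 8.98, 9.95 and 8.96 in day 12 arrays. The 4 groups did not overlap, with AI+E2 highest and VEH lowest. Akr1c3 rose by 1.63 in AI against VEH (SE 0.24, limma adjusted p = 0.000203), by 2.52 in AI+E2 against AI (adjusted p = 4.28e-06) and by 4.14 in AI+E2 against VEH (17.7-fold, adjusted p = 2.83e-08), and fell by 2.75 in VEH against day 12 (adjusted p = 3.19e-06). Close copies of this gene exist in the rat, so its probe set may read more than 1 of them.

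A2m, alpha-2-macroglobulin, a STAT5 target in the rat CL, fell in AI against VEH by 0.39 (limma adjusted p = 0.000179) and rose in AI+E2 against AI by 0.45 (adjusted p = 7.16e-05). Between AI+E2 and VEH its difference was 0.06 (adjusted p = 0.655). A2m also rose in VEH against day 12, by 0.22 (adjusted p = 0.0263), a call lost without day 12 replicate 1 or 2 or VEH replicate 2 (0.17 to 0.21). Of genes of the cell cycle in the list, Ccnd1, a cyclin, fell in AI against VEH by 0.38 (adjusted p = 0.00197) and in AI+E2 against VEH by 0.6 (adjusted p = 4.93e-05), while Cdkn1b, a cyclin kinase inhibitor, rose by 0.48 in AI+E2 against AI (adjusted p = 0.000361) and by 0.58 in AI+E2 against VEH (adjusted p = 7.55e-05). Scarb1, the receptor that takes up cholesterol from lipoproteins, rose in AI against VEH by 0.3 (adjusted p = 0.00177).

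Of textbook LH and cyclic AMP responsive genes, 16 of 18 were measured. AI against VEH called 3 higher and 0 lower, AI+E2 against AI 2 higher and 0 lower, AI+E2 against VEH 3 higher and 0 lower, and VEH against day 12 0 higher and 2 lower, with medians of 0.02, 0.09, 0.14 and 0.03. Of all genes, 16.9%, 12.8%, 13.0% and 10.1% were called in either direction in these comparisons, with medians of 0.013, -0.022, -0.006 and -0.018. Fdx1, which passes electrons to the enzyme that cleaves cholesterol, was at 11.30, 11.21 and 11.39 in AI+E2 arrays, 11.21, 11.24 and 11.28 in AI arrays, 10.06, 10.01 and 10.11 in VEH arrays and 10.65, 10.52 and 10.80 in day 12 arrays. AI+E2 and AI overlapped and lay above day 12, which lay above VEH. Fdx1 rose by 1.18 in AI against VEH (2.27-fold, limma adjusted p = 1.66e-08) and by 1.24 in AI+E2 against VEH (adjusted p = 2.25e-08).

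The transcription factor Nr4a1, which LH induces within a short time, rose by 1.39 in AI+E2 against AI (SE 0.14, 2.62-fold, limma adjusted p = 5.58e-06) and by 1.06 in AI+E2 against VEH (adjusted p = 9.28e-05). Rgs2, which dampens G protein signals, rose by 1.07 (adjusted p = 1.56e-05) and 0.99 (adjusted p = 3.7e-05) in the same comparisons. In AI against VEH the differences of Nr4a1 and Rgs2, -0.33 (adjusted p = 0.128) and -0.08 (adjusted p = 0.724), did not pass. Star, which moves cholesterol into mitochondria, and Cyp11a1, which cleaves it, each rose by 0.21 in AI against VEH (adjusted p = 0.0107 and 0.029). With quantile normalization applied again both changes were 0.03 and no longer passed. The Star call was also lost without AI replicate 1 (0.19), and the Cyp11a1 call without AI replicate 1 or 2 or VEH replicate 1 or 3 (0.17 to 0.22).

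The ligands made by pituitary and placenta were not followed in blood here, and 8 of their 9 genes were read in CL RNA. AI against VEH called 1 higher and 0 lower, AI+E2 against AI 0 higher and 1 lower, AI+E2 against VEH 0, and VEH against day 12 0 higher and 1 lower. The gene called was Cga, annotated as the alpha subunit shared by LH and related hormones. It was at 11.35, 11.35 and 11.39 in AI+E2 arrays, 12.04, 12.15 and 11.84 in AI arrays, 11.29, 11.26 and 11.40 in VEH arrays and 11.83, 12.03 and 11.86 in day 12 arrays. AI and day 12 were both above AI+E2 and VEH. Cga rose in AI against VEH by 0.69 (limma adjusted p = 1.47e-05) and fell in AI+E2 against AI by 0.65 (adjusted p = 4.04e-05), and whether the probe set reads this gene alone was not tested.

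The labelled tissue was checked by its markers. Of 10 luteal cell markers 7 were measured, and their mean level lay between 12.06 and 12.10 in AI+E2, 12.01 and 12.11 in AI, 11.99 and 12.06 in VEH and 11.97 and 12.00 in day 12 arrays. Hsd3b1, Cyp19a1 (aromatase) and Nr5a1 had no probe set with that name as its only gene symbol, though the paper lists a Cyp19a1 probe set. Markers of endothelium, 11 of 12 measured, averaged 8.57 to 8.64 in AI+E2, 8.44 to 8.66 in AI, 8.97 to 9 in VEH and 8.52 to 8.70 in day 12 arrays, so that VEH stood above the other groups, as it did for Stat5b by its mean and for Socs3. AI against VEH called 0 higher and 9 lower (median -0.44), AI+E2 against AI 1 higher and 0 lower (0.07), AI+E2 against VEH 0 higher and 7 lower (-0.4), and VEH against day 12 10 higher and 0 lower (0.38). All 4 members that fell in AI against VEH (Prlr, Stat5a, Stat5b and Socs3), and Adcy6, Arrb1 and other named genes, fell in the same comparison as this list, while VEH differed from day 12 by -0.18 for Prlr and -0.01 for Stat5a. The part of the list in these falls was not tested.

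**Figure D4:**
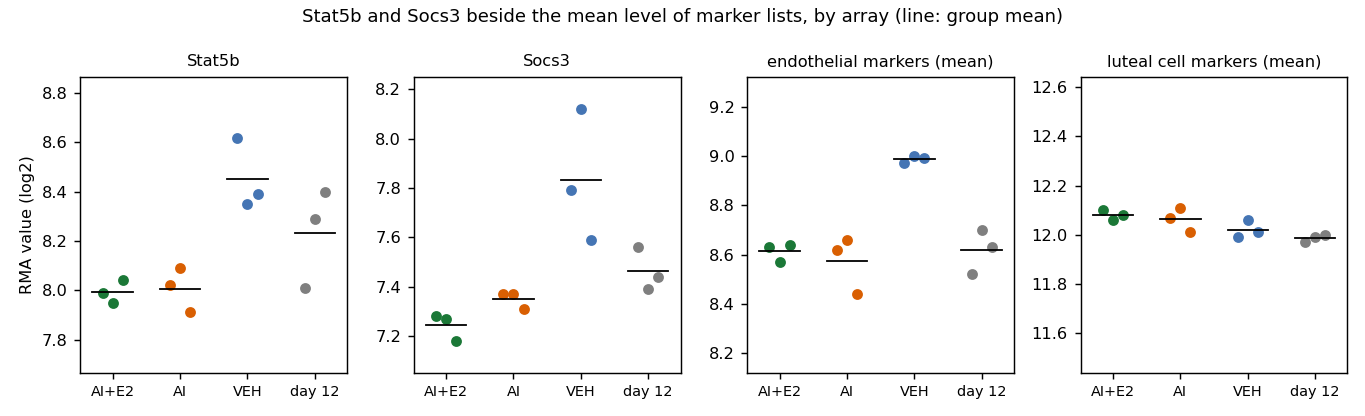
RMA values (log2, vertical axes) of Stat5b and Socs3 and the mean RMA value of 11 endothelial and 7 luteal cell markers in each array (points), by group, with the group mean (line); the axes do not start at 0. The endothelial mean is 8.97 to 9 in VEH and at most 8.70 in the other arrays, and the luteal mean lies between 11.97 and 12.11 throughout. Within the luteal list, 3 markers rose and 1 fell in AI against VEH.

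Markers of smooth muscle and pericytes, all 11 measured, averaged 8.56 to 8.57 in AI+E2, 8.50 to 8.67 in AI, 8.66 to 8.98 in VEH and 8.43 to 8.44 in day 12 arrays, with 3 that fell in AI against VEH and 6 that rose in VEH against day 12. Those of macrophages, all 15 measured, averaged 8.40 to 8.46 in AI+E2, 8.24 to 8.42 in AI, 8.14 to 8.25 in VEH and 8.08 to 8.19 in day 12 arrays, with 4 that rose in AI against VEH and 5 that rose in AI+E2 against VEH, as Socs1 did, and their part in its rise was not tested. Of 10 lymphocyte markers measured, 3 rose in AI+E2 against AI and 2 in AI+E2 against VEH. Markers of follicles (8 of 10 measured) had 1, 1, 2 and 0 calls higher and 0, 0, 0 and 2 lower in the 4 comparisons in the order used above, those of fat (6 of 6) 0 higher and 0, 1, 0 and 0 lower, and those of red blood cells (3 of 5) 0 higher and 0, 1, 2 and 1 lower. The mean level of the red blood cell markers was 7.25 to 7.33 in AI+E2, 7.70 to 7.80 in AI, 7.70 to 8.11 in VEH and 7.45 to 7.82 in day 12 arrays, so that AI+E2 lay below all other arrays. Their median change was -0.24 in AI against VEH, -0.25 in AI+E2 against AI, -0.49 in AI+E2 against VEH and 0.21 in VEH against day 12, and their part in the changes of the members was not tested.

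The genes whose pattern over the 12 arrays was most like that of 3 members were named by Pearson's r among all genes, as a description. For Prlr these were Sar1b, a GTPase of vesicle export (r = 0.951), Suclg1, a subunit of a citric acid cycle enzyme (0.947), the kinase Stk39 (0.946), Il13ra1, a receptor chain for interleukins (0.946), and Efr3a (0.944). For Lhcgr they were N4bp2l1 (0.938), Tom1l1 (0.926), Tsc22d4 (0.919), the kinase Pak1 (0.918) and F3, tissue factor of blood clotting (0.915), and for Cish they were Ints12 (0.899), Trdmt1 (0.893), Hdhd2 (0.893), Ablim1 (0.892) and Stk17b (0.891). The 12 arrays of these correlations fall into 4 groups, so the points are not independent.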

How the data were processed

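CL RNA of 12 rats was hybridised to Affymetrix Rat Gene 1.0 ST arrays. RMA (R 2.12.2, per the submitters' processing notes) was run by the authors, who deposited log2 values of 29214 probe sets. It removes background, gives all arrays 1 distribution and summarises probes, which can compress changes. The set of arrays it was run over is not stated in those notes or the methods. Of the probe sets, 15310 had 1 gene symbol in the platform's annotation, 323 had several and 13581 had none, and the last 2 kinds were left out. A listed gene was taken as measured only where a probe set had it as its 1 symbol. The probe set with the highest mean was used for the 527 genes with more than 1, which left 14506 genes, with no filter on dim ones. Each of the 9 members had 1 probe set.

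All arrays were fitted together by lmFit and eBayes of limma 3.58.1 (R 4.3.3), with 1 mean per group in 4 groups, 8 residual and 6.66 prior degrees of freedom. P values were adjusted by the Benjamini-Hochberg method over all genes, with a threshold of 0.05. Intervals cover 95%. The fit was tested on simulated data. The number of arrays limits the precision. Named pathway genes were up to 4 of each list with the smallest p in a comparison, among those called, and the 5 genes most like Prlr, Lhcgr and Cish. The members and lists were chosen with earlier results of these data known. Alternatives were other normalizations, filters, probe sets, fits and tests, the replicate number as a block, and leaving out each array. The last is reported for arrays of the groups compared, unless stated otherwise. Quantile normalization and array centring were applied to the values of the genes tested, not to all deposited probe sets. Promoter windows (build GRCr8) came from RefSeq, where 8 of 9 members were found, and Socs2 was not. Figures were drawn with matplotlib 3.10.9 in Python 3.11.15.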

Additional observations from a re-analysis of the deposited data

How the results depend on the processing

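For the 9 members, 608 changes under alternatives were recomputed: 542 kept their side of the threshold, 53 lost the call and 13 gained one. Direction was compared only where either fit called the change, and there 0 turned. Uncalled changes could turn, as Cish in AI against VEH did, from 0.03 to -0.11 without VEH replicate 1. Filters on the dimmest 25% or 50% of genes, array centring and averaged probe sets changed no member's call, though the 50% filter left out Stat5a. Neither the filters nor the averaging altered the members' own values, as each member had 1 probe set. They could change calls only through the other genes, by the shared spread and the adjustment. Leaving out 1 array gave 3 to 5 members called in AI against VEH (3 without VEH replicate 2), 1 to 2 in AI+E2 against AI (1 without AI replicate 1, AI+E2 replicate 1 or AI+E2 replicate 3), 6 to 8 in AI+E2 against VEH and 1 to 2 in VEH against day 12 (1 without day 12 replicate 2, VEH replicate 1 or VEH replicate 2). These fits left out only arrays of the 2 groups compared. All genes called in them numbered 1817 to 2303, 1245 to 1784, 1252 to 1604 and 998 to 1436, beside 2458, 1854, 1887 and 1471 with all arrays. Leaving out an array of another group could raise the count: without day 12 replicate 2, AI against VEH called 919 genes higher and 1709 lower. By the methods' t-test with adjustment, members called numbered 0, 1, 0 and 0 in that order and genes 663, 758, 564 and 57. Without adjustment it called 6 members in AI+E2 against AI, and 3260 genes there, 2968 in AI+E2 against VEH and 2247 in VEH against day 12. Over all probe sets 1 member was called in AI+E2 against AI and 1 in VEH against day 12. In VEH against day 12, quantile normalization applied again gave 4 members, Prlr and Lhcgr now lower, and fitting only these groups gave 1 member and 910 genes. Quantile normalization also gave 1231 genes higher and 1441 lower in AI against VEH (857 and 1601 before), 1152 and 980 for AI+E2 against AI (1255 and 599), and 929 and 778 in VEH against day 12 (1002 and 469). The cause was not tested. Of 68 calls of the 29 named pathway genes, 0 turned, 14 were lost in at least 1 fit without an array and 40 with the adjusted t-test.

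With the replicate number as a block, 36 of 36 member results kept their call, and genes higher and lower numbered 755 and 1471, 1116 and 509, 779 and 898, and 881 and 384 in the order above. Nothing in the labels ties same-numbered animals together, and deviations of same-numbered arrays correlated at -0.102, -0.154 and -0.102 for AI against VEH, -0.0653, -0.486 and -0.312 for AI+E2 against AI, 0.0939, 0.114 and 0.055 in AI+E2 against VEH, and -0.119, 0.0197 and -0.158 in VEH against day 12, so the numbers were not taken as pairs.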
